A study of Mus musculus with 4 samples.

Results

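The genes described here encode the nuclear complex that writes N6-methyladenosine (m6A) into messenger RNA and the enzymes that remove it. The rule that picks their rows uses the symbol and no expression value: Mettl3, Mettl14, Wtap, Virma, Zc3h13, Rbm15, Rbm15b and Cbll1 for the writer, and Fto and Alkbh5 for the demethylases. All 10 had a row among the 28141 genes of the deposited table, and all 10 were among the 15527 genes tested. RNA-seq of polyadenylated RNA was made from leukaemia cells that came out of C57BL/6 bone marrow and are labelled LSCs, in a series whose title concerns chronic myeloid leukaemia. There were 2 libraries of cells in which Ybx1 was conditionally knocked out (labelled YBX1cKO, here Ybx1 cKO) and 2 from cells labelled WT. The sources used here do not give the Cre driver, the agent that induced the leukaemia, the age of the mice, or whether a library is 1 animal or a pool. The labels do not say that replicates are separate animals; p-values therefore reflect only the spread among these libraries, which may be technical.

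m6A is the most abundant internal mark of messenger RNA. A catalytic pair, METTL3 and METTL14, places it in the nucleus, where WTAP, VIRMA, ZC3H13, RBM15 or RBM15B and CBLL1 hold the pair in place and bring it to its RNA targets; FTO and ALKBH5 take the methyl group off by oxidation. Reader proteins then alter the splicing, translation or decay of marked RNA, and several of these enzymes are studied for their roles in acute myeloid leukaemia. YBX1, the Y-box protein whose gene was targeted here, binds RNA and DNA and is reported to act together with m6A readers of the IGF2BP family.

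Deposited scores were multiplied by 0.693 (the natural logarithm of 2) to give log2 levels; the sources do not state this factor, which rests on how much replicates differed. If the scores were plain log2, each log2 fold change below would be 1.44 times as large with the same p-values. Another estimate of the scale, given with the processing below, would make them somewhat smaller. Ybx1 itself stood at 8.19 and 8.13 in the cKO libraries, against 9.31 and 9.41 in the WT libraries. It fell 2.29-fold (a log2 fold change of -1.20 with SE 0.08 and a limma adjusted p of 1.1e-11), so its RNA in cKO was still 0.436 times the WT level. Protein was not measured. Depth was unknown, since the table held no counts; the back-transformed levels summed to 12104617 and 12134026 in cKO libraries and to 11157952 and 11074317 in WT libraries. As to cell identity, the leukocyte gene Ptprc, the myeloid regulator Spi1 and the stem and progenitor marker Ly6a had rows. Kit and Cd34, which also mark stem and progenitor cells, had no row, and neither had the myeloid gene Csf3r. A missing row gives no level, so it does not show that a gene was silent. Of 10 monocyte and macrophage markers, 8 had a row, and their summed level was 10600 and 10600 per 1000000 of the library sum in cKO, against 6660 and 6770 in WT. Of 13 mature neutrophil markers, 6 had a row, with a summed level of 1280 and 1290 in cKO against 490 and 525 in WT. Of these 6, limma called 5 higher and 1 lower, beside 19.5% of all tested genes called higher and 17.8% lower. All 20 genes of a mitosis list fell (median log2 fold change -1.27), with a summed level of 679 and 681 in cKO against 1700 and 1650 in WT. Of 11 T and NK cell markers, 3 had a row, Cd3e and Cd3d not among them, with a summed level of 61.1 and 66.3 in cKO against 155 and 157 in WT. The summed level of granulocyte progenitor markers (3 of 8 with a row, without Mpo and Elane) was 274 and 280 in cKO against 138 and 143 in WT, and that of megakaryocyte and platelet markers (7 of 8) was 677 and 695 in cKO against 483 and 505 in WT. Erythroid markers (4 of 12, without the globin genes) summed to 141 and 132 in cKO against 197 and 189 in WT, and endothelial and stromal markers (7 of 8) to 232 and 239 in cKO against 449 and 470 in WT. Such sums follow the most abundant markers. By limma, 5 of 7 tested monocyte and macrophage markers were called higher and 2 were not called. Of 3 granulocyte progenitor markers 2 were called higher and 1 was not called. All 3 T and NK cell markers were called lower, as were 3 of 4 erythroid markers, with 1 not called. Of 6 endothelial and stromal markers tested, limma called 1 lower and 5 not (median log2 fold change 0.11). Of 7 megakaryocyte and platelet markers, 2 were called higher, 2 lower and 3 not called, beside 37.4% of all tested genes called. Of 7 B cell markers 1 had a row, Cd79b, at 26.4 and 24.0 in cKO against 22.0 and 23.9 in WT. Cd79b was called higher by limma on the log2 scale (log2 fold change 0.26), although its levels per 1000000 nearly met at 24.0 and 23.9. The other sums moved with the genotype. The part of all these markers in the results below was not tested. In such bulk samples fewer cells of a type and less RNA per cell cannot be told apart.

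Promoters of 3 members are shown because they hold the motif CCAAT, the core of the Y-box after which YBX1 is named. The search covered CCAAT on both strands (ATTGG on the opposite one) in RefSeq promoters of build GRCm38.p6. Each ran from 250 bases before a RefSeq start to 50 after it. The 3 windows shown lie inside the gene bounds of GENCODE M21, so their starts are not the outermost annotated ones. Of the 10 members, 8 had such sequences, 11 in all; Mettl14 and Virma were not matched. Capitals mark the motif. The sequences lie at chr17:12992490-12992789 on the minus strand for Wtap, chr11:60537433-60537732 on the plus strand for Alkbh5 and chr3:107333240-107333539 on the minus strand for Rbm15.
Wtap: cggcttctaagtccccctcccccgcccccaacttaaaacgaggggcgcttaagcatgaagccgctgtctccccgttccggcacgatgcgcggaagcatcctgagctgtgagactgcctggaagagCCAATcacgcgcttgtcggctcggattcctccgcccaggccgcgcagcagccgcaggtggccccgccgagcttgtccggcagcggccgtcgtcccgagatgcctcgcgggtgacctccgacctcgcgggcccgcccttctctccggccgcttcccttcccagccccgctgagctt
Alkbh5: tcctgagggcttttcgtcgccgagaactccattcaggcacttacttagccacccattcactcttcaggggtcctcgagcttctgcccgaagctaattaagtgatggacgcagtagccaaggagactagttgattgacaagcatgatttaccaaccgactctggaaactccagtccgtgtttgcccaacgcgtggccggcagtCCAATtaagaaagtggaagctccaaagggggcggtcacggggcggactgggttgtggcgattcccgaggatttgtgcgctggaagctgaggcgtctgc
Rbm15: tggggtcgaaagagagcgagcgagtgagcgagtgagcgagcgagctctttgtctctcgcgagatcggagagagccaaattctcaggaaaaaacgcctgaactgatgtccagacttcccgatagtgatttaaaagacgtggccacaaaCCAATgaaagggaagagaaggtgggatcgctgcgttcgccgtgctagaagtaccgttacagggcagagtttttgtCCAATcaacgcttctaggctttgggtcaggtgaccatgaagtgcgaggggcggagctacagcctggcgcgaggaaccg
The first motif base lay at position -125 for Wtap and -48 for Alkbh5, and at positions -103 and -28 for Rbm15, counted from the start. A second Wtap start, 4 bases upstream, held the same motif, and the third Wtap start held none. In all, 4 of the 11 member sequences had a match, beside 37.4% of the 32851 RefSeq promoter sequences of that build. Matches are a description of these letters and not of binding. As described below, Wtap and Alkbh5 were called higher in cKO, and Rbm15 was not called.

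Across the family the differences between genotypes were small. With limma and Benjamini-Hochberg adjustment over all 15527 genes tested, 3 of the 10 genes passed an adjusted p of 0.05: Mettl14 fell, and Wtap and Alkbh5 rose. Over all genes tested, 37.4% were called in either direction, 19.5% higher and 17.8% lower, so 3 of 10 is near the background. The median log2 fold change of the 10 genes was 0.05, against 0.00 for all tested genes, and the median size without regard to sign was 0.12, against 0.32 for all tested genes. These all-gene values are not matched for level. Every member but Rbm15b lay above the median log2 level of the tested genes, 6.73. The cKO and WT libraries did not overlap for 6 of the 10 genes, and for 65.1% of all genes tested. How the libraries are scaled matters for changes of this size: when libraries were set to an equal sum, all log2 fold changes moved by -0.12, and Mettl14 and Zc3h13 were then the 2 members called, both lower. Under that scaling 2132 genes were called higher and 4047 lower, against 3035 higher and 2768 lower as reported here.

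**Figure D1:**
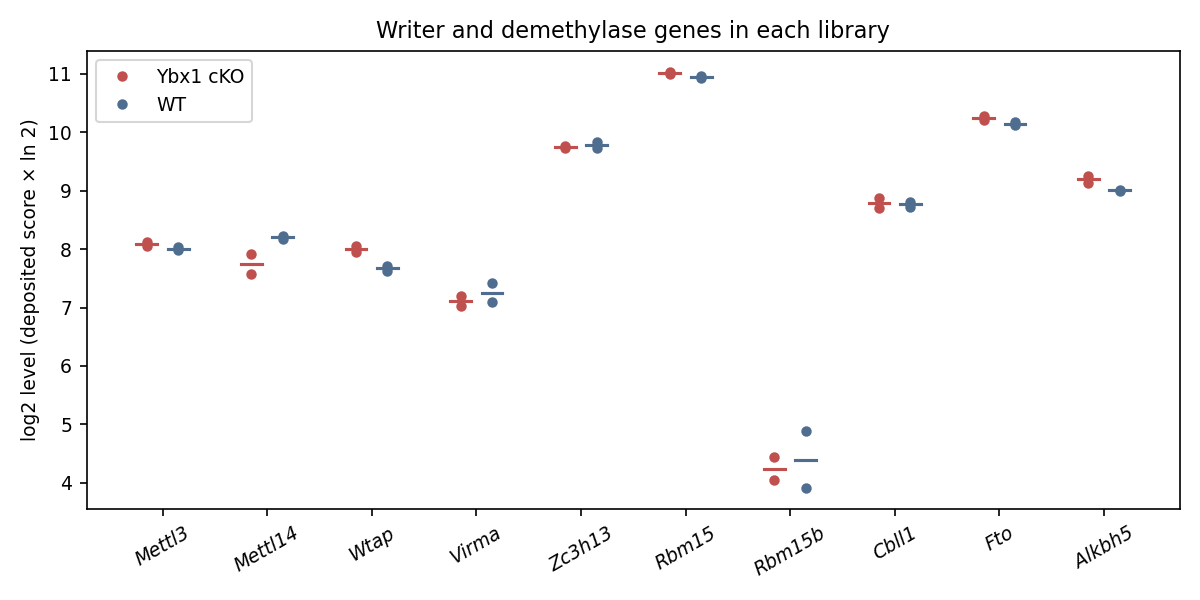
Log2 level (deposited score times the natural logarithm of 2, vertical axis) of each gene in each library; points are libraries and short bars the mean of 2, with Ybx1 cKO on the left of WT for each gene. Mettl14 is lower in both cKO libraries (7.91 and 7.57) than in both WT libraries (8.23 and 8.17), and Rbm15b shows the widest spread between replicates.

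Of the catalytic pair, one gene changed. Mettl14, the partner that binds the RNA substrate and props up the catalytic subunit, had log2 levels of 7.91 and 7.57 in cKO libraries, against 8.23 and 8.17 in WT libraries. The groups did not overlap, and the cKO libraries lay further apart (0.34) than the WT libraries (0.06). Mettl14 averaged 7.74 ± 0.24 in cKO and 8.20 ± 0.04 in WT (SD, n = 2 each). The cKO level fell 1.38-fold (log2 fold change -0.46, SE 0.11, 95% interval -0.70 to -0.22, limma adjusted p = 0.0023). The fall kept its sign when any single library was left out, with a log2 fold change of -0.29 without cKO replicate 2 and -0.63 without cKO replicate 1. Those 2 fits keep 1 cKO library and so leave out the spread of the cKO pair. They therefore cannot show whether the call holds. With all 4 libraries the call was lost without a filter on low values (adjusted p = 0.10) and with a prior variance that ignores the level (adjusted p = 0.13). Mettl14 lies on chromosome 3 from 123368297 to 123386108, on the minus strand (GENCODE M21, GRCm38).

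Mettl3, which carries the methyltransferase activity, had log2 levels of 8.05 and 8.12 in cKO libraries, against 8.03 and 7.99 in WT libraries. The cKO libraries lay just above the WT libraries, by less than the replicates differed, and no change was called (log2 fold change 0.07, SE 0.10, 95% interval -0.13 to 0.28, limma adjusted p = 0.63). That interval spans folds of 0.911 to 1.21, and with equal library sums the sign turned (-0.05). Mettl3 lies on chromosome 14 from 52294841 to 52305128 on the minus strand, and 18.4% of its exon bases overlap exons of Tox4 on the opposite strand. Tox4, a nuclear chromatin protein gene, was higher in cKO by 0.16 (SE 0.04, limma adjusted p = 0.0051). The sources used here do not say if reads were counted by strand, and without strand the reads of the shared stretch cannot be told apart.

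Within each library the balance of the pair can be read without regard to library scaling. The log2 level of Mettl14 minus that of Mettl3 was -0.15 and -0.55 in cKO libraries, against 0.20 and 0.17 in WT libraries. Mettl14 thus lay below Mettl3 in both cKO libraries and above it in both WT libraries on this scale, which does not correct for transcript length. Per length of merged exons Mettl14 was below Mettl3 in all 4 libraries (3.62 and 3.50 against 4.63 and 4.53 in WT). The sign of the difference therefore depends on length. The uncorrected log2 difference averaged -0.35 ± 0.29 in cKO and 0.18 ± 0.02 in WT (SD, n = 2 each). This difference was not tested.

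Among the other writer subunits 1 of 6, Wtap, was called. Wtap, which anchors the catalytic pair in nuclear speckles, had log2 levels of 8.06 and 7.95 in cKO libraries, against 7.62 and 7.72 in WT libraries. Both cKO libraries were above both WT libraries. It rose 1.26-fold (log2 fold change 0.33, SE 0.11, 95% interval 0.10 to 0.56, limma adjusted p = 0.019). With 1 library left out the log2 fold change ranged from 0.28 to 0.39, in fits that do not measure the spread of the reduced group. With equal library sums it was 0.21 and the call was lost (limma adjusted p = 0.15). It was also lost without a filter on low values (adjusted p = 0.069) and when the prior variance ignored the level (adjusted p = 0.095). Wtap lies on chromosome 17 from 12966796 to 12994169 on the minus strand.

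The large scaffold genes were not called. Virma, whose protein recruits the catalytic core and guides which sites are methylated, had log2 levels of 7.19 and 7.03 in cKO libraries, against 7.42 and 7.09 in WT libraries. The groups overlapped (log2 fold change -0.15, 95% interval -0.45 to 0.15, limma adjusted p = 0.48), and without WT replicate 1 the difference was 0.02. Zc3h13, which keeps the complex in the nucleus, had 9.74 and 9.76 in cKO libraries, against 9.83 and 9.74 in WT libraries. Its difference was among the smallest of the family (log2 fold change -0.04, 95% interval -0.16 to 0.08, limma adjusted p = 0.67), but with equal library sums it was -0.16 and called (adjusted p = 0.029).

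The RNA-binding adaptors differed more from each other than between genotypes. Rbm15, which brings the writer to its targets and is known as a fusion partner in a megakaryoblastic leukaemia, had log2 levels of 11.04 and 10.99 in cKO libraries, against 10.93 and 10.96 in WT libraries. These groups did not overlap, yet no change was called (log2 fold change 0.07, SE 0.04, 95% interval -0.02 to 0.15, limma adjusted p = 0.24), and the sign turned under quantile normalization (-0.02) and with equal library sums (-0.06). With equal medians Rbm15 was called higher (adjusted p = 0.017). Its paralog Rbm15b had 4.44 and 4.04 in cKO libraries, against 3.91 and 4.88 in WT libraries. The WT libraries alone were 0.97 apart, so the interval of its log2 fold change was wide (-0.15, 95% interval -0.89 to 0.59, limma adjusted p = 0.79). Rbm15 exceeded Rbm15b by 6.59 and 6.95 log2 units in cKO libraries and by 7.02 and 6.08 in WT libraries, without correction for length. Cbll1, the HAKAI ubiquitin ligase that is a stable part of the complex, had 8.88 and 8.70 in cKO libraries, against 8.73 and 8.80 in WT libraries. The cKO libraries lay on either side of the WT mean, and no change was called (log2 fold change 0.03, 95% interval -0.15 to 0.20, limma adjusted p = 0.85). As for Mettl3, reads may be shared: 17.6% of the Cbll1 exon bases overlap exons of Gm29542 on the opposite strand, a gene with no row.

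**Figure D2:**
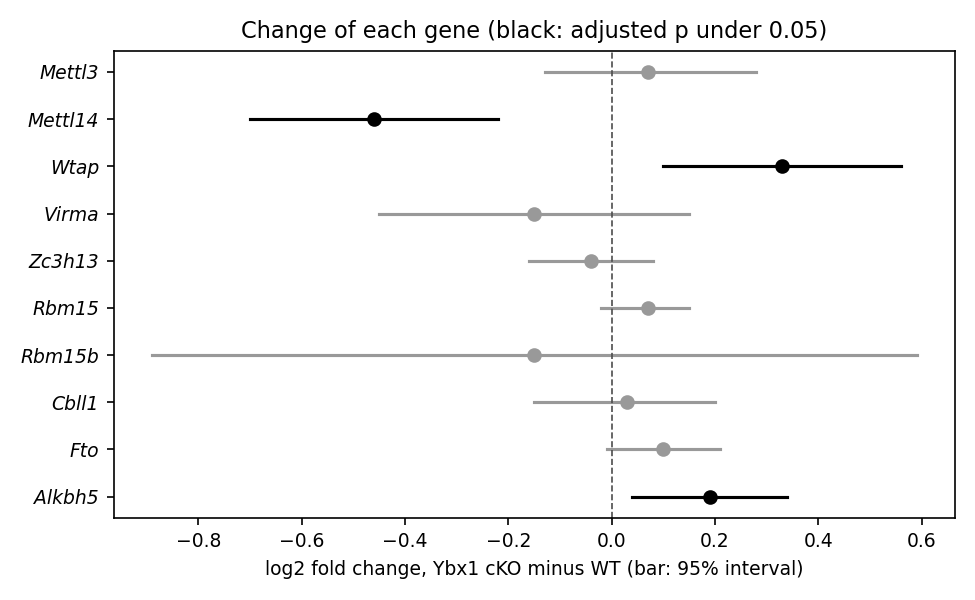
Log2 fold change of each gene, Ybx1 cKO minus WT (horizontal axis), with bars for the 95% interval from limma's moderated variance over 2 libraries a group; black marks genes with an adjusted p under 0.05. Mettl14 lies at -0.46, Wtap at 0.33 and Alkbh5 at 0.19, and the intervals of the other 7 genes include 0.

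Both demethylase genes had higher log2 levels in cKO, and 1 of them passed. Alkbh5, the nuclear demethylase that acts on m6A in messenger RNA, had log2 levels of 9.26 and 9.13 in cKO libraries, against 9.02 and 8.99 in WT libraries. Both cKO libraries lay above both WT libraries. It rose 1.14-fold (log2 fold change 0.19, SE 0.07, 95% interval 0.04 to 0.34, limma adjusted p = 0.046), which is close to the threshold. With 1 library left out the log2 fold change ranged from 0.12 to 0.26, in fits that do not measure the spread of the reduced group. The call was lost with a robust prior (limma adjusted p = 0.051) and without a filter on low values (adjusted p = 0.15). It was also lost when the prior variance ignored the level (adjusted p = 0.21) and with equal library sums (log2 fold change 0.07, adjusted p = 0.54). Alkbh5 lies on chromosome 11 from 60536381 to 60558512 on the plus strand.

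Fto, which removes m6A and also the related mark beside the cap, had log2 levels of 10.21 and 10.28 in cKO libraries, against 10.18 and 10.12 in WT libraries. The groups did not overlap, but no change was called (log2 fold change 0.10, SE 0.05, 95% interval -0.01 to 0.21, limma adjusted p = 0.17). With each library shifted to an equal median it was called higher (adjusted p = 0.017), and with equal library sums its sign turned (-0.03). Alkbh5 lay below Fto by 0.95 and 1.15 log2 units in cKO libraries and by 1.16 and 1.13 in WT libraries, so the balance of the pair overlapped between genotypes. These differences are not corrected for length; per length the libraries of the 2 genes overlapped, as given below.

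**Figure D3:**
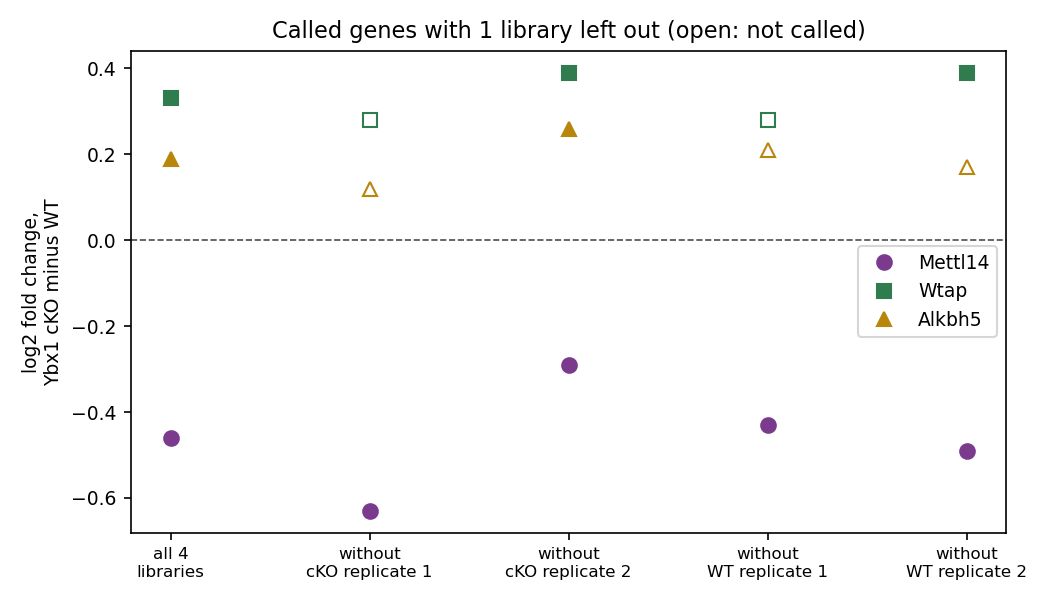
Log2 fold change, Ybx1 cKO minus WT (vertical axis), of the 3 called genes with all 4 libraries and with each library left out; filled symbols have a limma adjusted p under 0.05. In the 4 reduced sets Mettl14 lies between -0.63 and -0.29, Wtap between 0.28 and 0.39 and Alkbh5 between 0.12 and 0.26. Each reduced set leaves 1 library in a group, whose spread is then not measured, so its filling is no test of a call.

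Levels can be set between genes only per length, here as the back-transformed level per 1000000 of the library sum and per 1000 bases of merged exons. Since these levels are scaled to the library sum, they sit lower in cKO, relative to WT, than the log2 levels above. Rbm15 was highest, at 23.0 ± 0.603 in cKO and 23.9 ± 0.448 in WT (SD, n = 2 each). Zc3h13 followed with 11.3 ± 0.122 in cKO and 12.7 ± 0.462 in WT, and Cbll1 with 9.13 ± 0.834 in cKO and 9.75 ± 0.367 in WT. Next came the demethylases, whose library values overlapped: Alkbh5 averaged 8.09 ± 0.533 in cKO and 7.72 ± 0.0747 in WT, and Fto averaged 7.68 ± 0.262 in cKO and 7.83 ± 0.177 in WT.

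The catalytic pair and its anchor were lower per length. Mettl3 averaged 4.42 ± 0.136 in cKO and 4.58 ± 0.0671 in WT, Wtap 3.39 ± 0.188 in cKO and 2.94 ± 0.173 in WT, and Mettl14 2.39 ± 0.398 in cKO and 3.56 ± 0.0913 in WT (SD, n = 2 each). Over all 4 libraries the ranges of Wtap and Mettl14 overlapped, as did those of Mettl14 and Virma. Virma averaged 1.60 ± 0.127 in cKO and 1.94 ± 0.305 in WT, and Rbm15b, the lowest, 0.242 ± 0.048 in cKO and 0.307 ± 0.143 in WT. The order depends on the length used: Fto has 13031 bases of merged exons but 4707 in its longest transcript, and with the longest transcript it ranked 2 instead of 5, and Mettl3 ranked 4 instead of 6. With the longest transcript the Wtap level was also above that of Mettl14 in all 4 libraries (6.90 and 6.38 for Wtap and 2.75 and 2.17 for Mettl14 in cKO, 5.51 and 5.99 for Wtap and 3.74 and 3.60 for Mettl14 in WT).

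**Figure D4:**
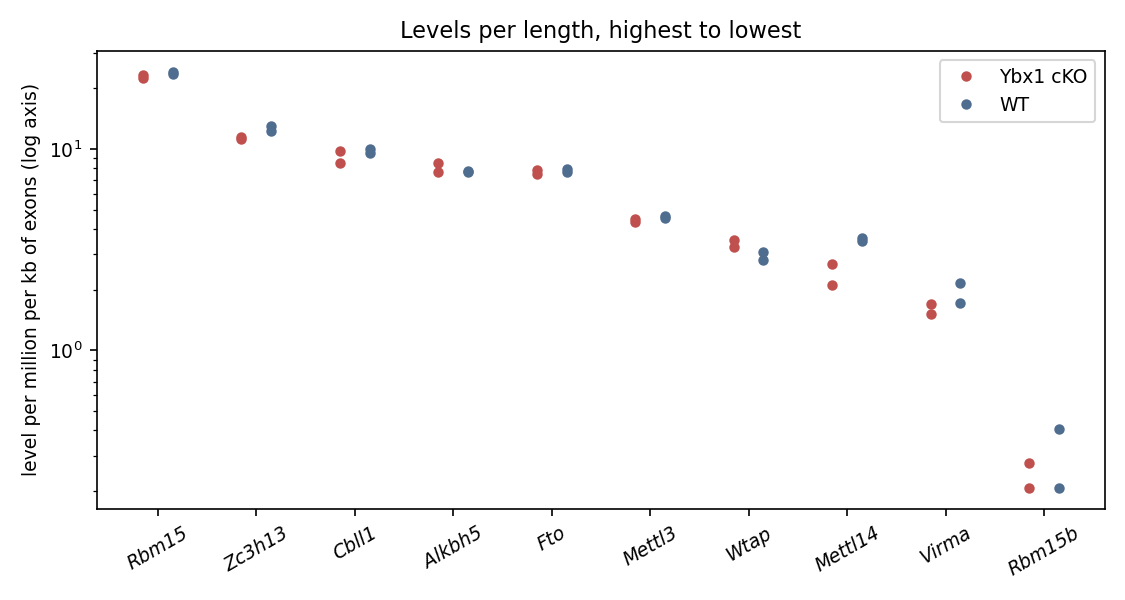
Level per 1000000 of the library sum per 1000 bases of merged exons (vertical log axis) in each library, genes ordered from highest to lowest mean, Ybx1 cKO on the left of WT. Rbm15 lies between 22.5 and 24.2 in the 4 libraries and Rbm15b between 0.207 and 0.408.

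The genes around the writer complex are given for comparison, by lists chosen with earlier results of these data known. Genes listed for the supply of the methyl donor were mostly lower: of 7 genes, 5 fell and 1 rose, with a median log2 fold change of -0.42. Beside this, 37.4% of all tested genes were called, 19.5% higher and 17.8% lower. The list covers S-adenosylmethionine synthesis and recycling, and also Ahcyl1 and Ahcyl2, which are relatives of the recycling gene Ahcy. Mat2a, which makes S-adenosylmethionine, had log2 levels of 11.24 and 11.28 in cKO libraries, against 12.03 and 11.97 in WT libraries, a log2 fold change of -0.74 (SE 0.04, limma adjusted p = 3.9e-14). Its regulatory subunit gene Mat2b went the other way, with 12.22 and 12.26 in cKO libraries against 11.83 and 11.80 in WT libraries (log2 fold change 0.43, SE 0.03, limma adjusted p = 1.2e-10). Ahcyl1, a relative of the enzyme that clears the by-product of methylation, fell (log2 fold change -0.54, SE 0.09, limma adjusted p = 3.1e-05).

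Of 6 genes for m6A enzymes, related methyltransferases and partners outside the METTL3 complex, 2 rose and 2 fell (median -0.12). Mettl16, which methylates U6 small nuclear RNA and hairpins in the Mat2a transcript, fell (log2 fold change -0.32, SE 0.06, limma adjusted p = 0.00012). Mettl5, which methylates ribosomal RNA, fell too (log2 fold change -0.45, SE 0.08, limma adjusted p = 0.00011), while Trmt112, its activating partner, rose by 0.33 (SE 0.05, limma adjusted p = 1.3e-05). Of 15 m6A readers listed, 14 were tested, 1 rose and 5 fell (median -0.09). The called shares of these 2 lists are to be read against the 37.4% of all tested genes, and that of the readers is near it. By direction, 19.5% of all tested genes were called higher and 17.8% lower. Eif3a, Rbmx and Hnrnpa2b1 had log2 fold changes of -0.41, -0.68 and -0.20, the largest limma adjusted p among them being 1.1e-07.

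Of 7 other AlkB genes none was called by limma and 0 had an unadjusted p under 0.05; Alkbh8, a transfer RNA modifier, had the smallest p (log2 fold change -0.20, SE 0.10, adjusted p = 0.14). With equal library sums Alkbh8 was called (-0.32, limma adjusted p = 0.010). With 1 library left out its log2 fold change ranged from -0.34 to -0.06, in fits that do not measure the spread of the reduced group. Of 8 tested genes of RNA 5-methylcytosine, 4 fell and 0 rose (median -0.24), beside 37.4% of all tested genes called and 17.8% called lower. Nsun2, the main enzyme for this mark in messenger RNA, had log2 levels of 8.72 and 9.05 in cKO libraries, against 9.80 and 9.74 in WT libraries (log2 fold change -0.88, SE 0.08, limma adjusted p = 4.3e-09). Nop2, whose nucleolar protein methylates ribosomal RNA, had a log2 fold change of -0.45 (SE 0.04, limma adjusted p = 5.7e-09). Nsun5, which does so too, had -0.32 (SE 0.08, limma adjusted p = 0.0038), and from -0.37 to -0.27 with 1 library left out. When the prior variance ignored the level, limma called 3 methyl donor genes and 2 readers. It called 0 genes of the list that holds Mettl16 and 0 of the 5-methylcytosine genes. Of these last lists, 3 and 4 genes had an unadjusted limma p under 0.05. Mat2a, Mat2b and Ahcyl1 were the 3 methyl donor genes, and Rbmx and Eif3a the 2 readers. In the mitosis list, Top2a, Ccnb1 and Cdc20 fell with log2 fold changes of -1.48, -1.30 and -0.95.

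**Figure D5:**
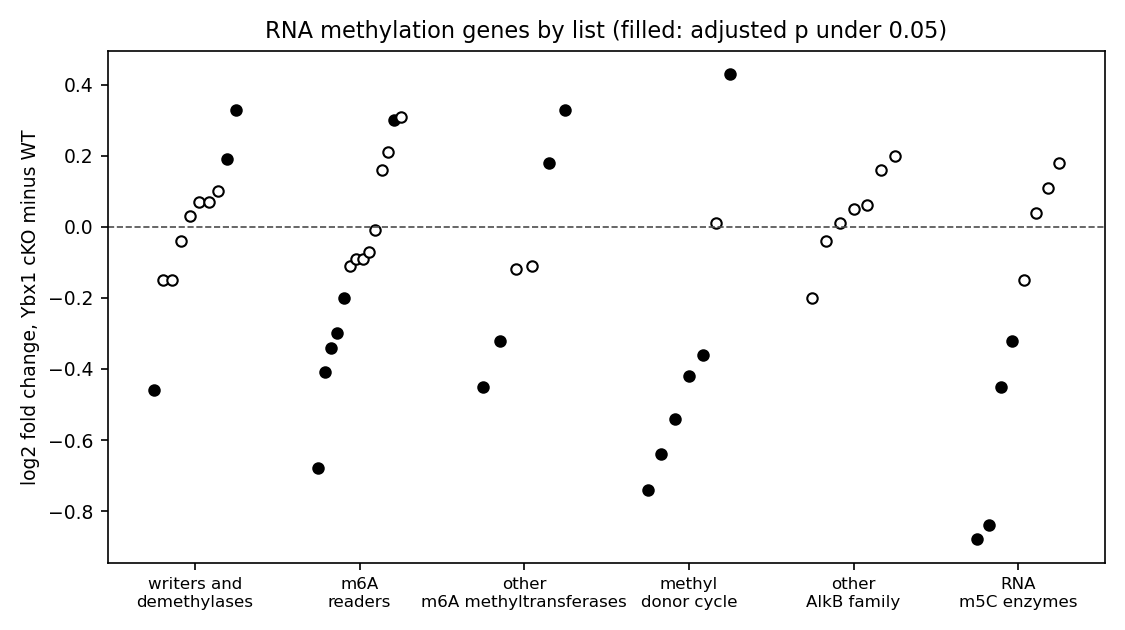
Log2 fold change, Ybx1 cKO minus WT (vertical axis), of each tested gene in the writer and demethylase family and in 5 related lists; filled points have a limma adjusted p under 0.05. In the methyl donor list 5 of 7 points are filled below 0 and 1 above it, whereas most points of the writer and demethylase family lie within 0.2 of 0.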

How the data were processed

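Trizol RNA was selected on oligo dT beads and libraries were randomly primed, per the labels' protocols. The authors' tools, per the submitters' processing notes, were DESeq2, featureCounts, HISAT2 2.1.0 and CASAVA, and the build was GRCm38; the notes give no roles. The deposited values are 1 score per gene and library (from -3.19 to 27.9), on a log scale; the sources used here do not give the authors' transformation. All 4 columns matched samples by title.

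Scores were multiplied by 0.693. Under this reading replicate noise was 1.31 times Poisson noise in cKO and 1.10 times in WT; under plain log2 it was 5.90 and 4.83 times. It treats back-transformed levels as reads, which is an assumption. How noise fell with level gave 1.60 score units per doubling in cKO and 1.62 in WT, against 1.44 under the factor used. At those values each log2 fold change would be somewhat smaller. A gene entered the fit when 2 or more libraries had a score of 1 or more (15527 genes). The fit used limma 3.58.1 under R 4.3.3 (eBayes with a trend of variance on level, genotype as the only term, two-sided, Benjamini-Hochberg over all genes, threshold 0.05). In simulated data over 15527 genes, 200 genes were changed, all raised in cKO, with noise set by the WT replicates only. Recovered were 40% of 50 genes changed 1.25-fold, 40% of 50 changed 1.5-fold, 62% of 50 changed 2-fold and 92% of 50 changed 4-fold. Of the calls, 8.59% were false. In the data 37.4% of genes were called, in both directions, and cKO noise was larger than WT noise. These rates depend on such settings and do not carry over to the real comparison.

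Members and lists were chosen with earlier results of these data known, although the rule that picks the members' rows uses symbols only. Besides the 10 members and Ybx1, up to 3 called genes with the smallest p of each related list were named, or 1 where none was called. Tox4 was named for its overlap with Mettl3, and the YTH genes because the readers named by that rule all fell. Positions and exon lengths come from GENCODE M21. Alternatives covered filters, scaling, the prior variance, the threshold, the scale, a replicate block, exon length and leaving out each library. Tables and plots used Python 3.11.15, pandas 2.3.3, numpy 2.4.6 and matplotlib 3.10.9.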

Additional observations from a re-analysis of the deposited data

How the results depend on the processing

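The total of 5803 called genes stayed within 1.5 times in every alternative but the prior variance without a trend, which gave 2267 (1177 higher, 1090 lower; 2080 of them among the 5803); with 1 library left out it ranged from 4662 to 5803. Of the 10 members 3 were called; the number was 1 at an adjusted p under 0.01, 5 with equal medians, and 0 by limma without a filter or with a prior without a trend, where 3 and 2 members had an unadjusted p under 0.05. With 1 library left out it ranged from 1 to 3, being 1 without WT replicate 1 and without cKO replicate 1. The equal library sum was chosen after the data were seen: 2 members were called, and the log2 fold changes of Mettl3 (-0.05), Rbm15 (-0.06), Cbll1 (-0.10) and Fto (-0.03) turned negative. Rbm15 was -0.02 under quantile normalization and Zc3h13 was 0.02 with equal medians. With 1 library left out, Cbll1 ranged from -0.06 to 0.12, Rbm15b from -0.64 to 0.34, Virma from -0.31 to 0.02 and Zc3h13 from -0.08 to 0.004. Over the alternatives with all 4 libraries the limma adjusted p ranged from 8.7e-05 to 0.13 for Mettl14, from 0.0048 to 0.15 for Wtap and from 0.0066 to 0.54 for Alkbh5. With 1 library left out, the spread comes from the other group's pair and the prior. Calls in those fits therefore ignore the spread of the reduced group. The highest level per length was 85.2 times the lowest with merged exons and 106 times with the longest transcript. Replicate 1 minus replicate 2 correlated at 0.013 between cKO and WT over 15527 genes, so no shift shared by same-numbered libraries was seen. Whether those libraries were paired in handling cannot be told from this value. With the replicate block 6026 genes were called, all 5803 among them, and 3 members. Apart from lower counts by construction at the stricter threshold, the cause was not tested. With no counts, the limit that depth sets is unknown.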
